A study of Mus musculus with 8 samples.

Results

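Amino acid transporters are the membrane carriers that move amino acids into, out of and through cells, and the genes described here are the mouse families Slc1a, Slc3a, Slc6a, Slc7a, Slc36a, Slc38a and Slc43a, together with the aromatic amino acid carrier Slc16a10 and Cltrn (collectrin). They were chosen by symbol, as protein-coding genes with at least 10 counts in total over 8 kidney libraries. Of 65 family genes in a table of 42256 genes, 56 met that minimum, and 47 of them passed the filter on low counts and were tested. Slc6a2, with 13 counts, lay just inside the minimum, and Slc38a8, with 7 counts, lay just outside it.

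In the kidney, nearly all filtered amino acids are taken back by the proximal tubule. Carriers in the brush border (Slc6a19 and its relatives for neutral and imino acids, the Slc3a1 heterodimers for cystine and dibasic amino acids, Slc1a1 for glutamate and aspartate) bring them into the cell, and basolateral exchangers and uniporters pass them on to the blood. Slc3a1 and Slc3a2 are heavy chains that carry light chains of the Slc7a family to the membrane, and Cltrn is the partner that the renal Slc6a19 group needs to reach the brush border.

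The RNA came from kidneys of 8 adult males, 4 labelled CDH11-/- and 4 labelled CDH11+/+, with 129S1/Sv x C57BL/6 as their mixed background (Cdh11 encodes cadherin-11, a cell adhesion protein of mesenchymal cells). Every mouse had been given aristolochic acid, a plant toxin that damages the proximal tubule, at 3 mg/kg on each of 5 days, and was killed 2 weeks after the last dose. All 8 kidneys were therefore injured, and uninjured kidneys were not analysed here. Since the title of the series gives a different model (Unx/AngII), the injury is stated here from the labels. How the CDH11-/- allele was made, and any litter, cage or sequencing batch, is not given in the labels.

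The libraries held 10675309 to 18539479 counts. Cdh11 itself went against the labels, with 89.9, 91.3, 112.5 and 117.2 CPM (counts per library, scaled to the same total) in the libraries labelled CDH11-/- and 75.6, 58.0, 61.7 and 59.0 CPM in those labelled CDH11+/+ (log2 fold change 0.69 ± 0.11 SE, adjusted p = 0.0249). In the authors' normalized values the log2 fold change was 0.26 (limma, adjusted p = 0.524), and leaving out CDH11+/+ replicate 2, 3 or 4 or CDH11-/- replicate 3 or 4 gave adjusted p-values of 0.0529 to 0.108 on the counts. A count per gene does not show which exons were read. Genotypes are therefore given as labelled throughout. Kidney markers were present in every library, with thick ascending limb markers (Umod, Slc12a1 and Cldn16) at a sum of 1546 to 2937 CPM in CDH11-/- libraries and 1620 to 2886 CPM in CDH11+/+ libraries. CDH11+/+ replicate 1 stood apart from the other 3 CDH11+/+ libraries: it was the lowest of the 4 in 33.3% and the highest in 32.3% of all genes tested, and in 22 and 14 of the 47 transporter genes. Where a call described here turned on this library, the adjusted p without it is given too. In whole kidney, fewer cells of a type and less RNA per cell cannot be told apart.

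The sequences upstream of 4 brush border genes are shown as examples of the carriers at the head of the reabsorption pathway. They were chosen with the matches known, and 3 of the 4 hold one, so they do not stand for the brush border genes as a group. HNF1 and HNF4 are transcription factors of proximal tubule cells, and a half-site of HNF1 (GTTAAT) and a site of HNF4 (CAAAGTCCA) were searched on both strands of the 250 bases before each start site in the RefSeq annotation of GRCm38.p6. Matches are in capitals and describe the letters only. Windows were at hand for 38 of the 56 genes, and a gene with several start sites was counted if any of its windows held the letters. The half-site GTTAAT was found in 7 of the 38 (Cltrn, Slc6a20a, Slc7a7, Slc16a10, Slc36a1, Slc6a13 and Slc7a15) and in 7.49% of the 27025 genes with a window. CAAAGTCCA was found in 1 of the 38, Slc3a1, and in 0.451% of all genes. The Cltrn window (chrX:164089937-164090186, plus strand) holds the half-site on each strand, the more distant at position -73; the Slc6a20a window (chr9:123678833-123679082, minus strand) holds it at position -56; the Slc3a1 window (chr17:85028097-85028346, plus strand) holds the HNF4 letters at position -39; the Slc6a19 window (chr13:73692637-73692886, minus strand) holds neither. The window of a second Cltrn start site (chrX:164091939-164092188, plus strand) and the windows of Slc7a9, Slc6a20b and Slc1a1, which are not shown, hold neither.
Cltrn: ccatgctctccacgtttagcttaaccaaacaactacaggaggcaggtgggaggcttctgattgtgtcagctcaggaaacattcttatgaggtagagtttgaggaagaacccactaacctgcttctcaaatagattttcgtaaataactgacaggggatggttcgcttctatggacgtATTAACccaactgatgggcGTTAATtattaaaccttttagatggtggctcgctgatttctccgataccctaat
Slc6a20a: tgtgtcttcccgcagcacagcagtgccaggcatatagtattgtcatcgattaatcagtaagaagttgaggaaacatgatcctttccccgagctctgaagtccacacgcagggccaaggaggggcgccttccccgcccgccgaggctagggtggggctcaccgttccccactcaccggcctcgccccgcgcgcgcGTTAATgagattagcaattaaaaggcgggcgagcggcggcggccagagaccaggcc
Slc3a1: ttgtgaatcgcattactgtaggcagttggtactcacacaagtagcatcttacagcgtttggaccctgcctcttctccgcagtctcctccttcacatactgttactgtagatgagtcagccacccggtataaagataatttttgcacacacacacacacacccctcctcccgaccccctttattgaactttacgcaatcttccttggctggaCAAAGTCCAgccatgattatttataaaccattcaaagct
Slc6a19: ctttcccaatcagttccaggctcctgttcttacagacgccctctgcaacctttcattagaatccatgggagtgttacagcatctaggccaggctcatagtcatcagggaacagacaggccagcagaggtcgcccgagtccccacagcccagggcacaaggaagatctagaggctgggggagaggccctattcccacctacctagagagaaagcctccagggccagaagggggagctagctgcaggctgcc

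Among the 47 tested genes, 1 rose and 0 fell at an adjusted p under 0.05 by the edgeR quasi-likelihood test with Benjamini-Hochberg adjustment over 15852 genes, where 0.725% of all genes passed (0.36% higher and 0.366% lower). The gene that rose was Slc43a3. Log2 fold changes (CDH11-/- over CDH11+/+) were negative for 30 of the 47 and positive for 17, beside 52.4% negative among all genes, and their median was -0.15, beside -0.01 for all genes. At an unadjusted p under 0.05, 12 of the 47 were lower (25.5%, beside 7.63% of all genes) and 5 were higher (10.6%, beside 6.74%). In 6 genes every CDH11-/- library lay below every CDH11+/+ library (12.8%, beside 3.74% of all genes): Cltrn, Slc6a19, Slc6a20a, Slc16a10, Slc6a15 and Slc1a2. In 3 genes every CDH11-/- library lay above (6.38%, beside 3.59%): Slc43a3, Slc38a1 and Slc7a2.

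Which members passed the threshold depended on the method and on CDH11+/+ replicate 1. DESeq2 called 6 of the 47, beside 2.79% of all genes, 1 of them higher (1.31% of all genes) and 5 lower (1.48%): Cltrn, Slc6a19, Slc6a20a, Slc6a15 and Slc1a2. Limma-voom with quality weights called 7, beside 4.28% of all genes, 2 of them higher (2.13% of all genes), Slc43a3 and Slc38a1, and 5 lower (2.16%), Slc6a20a, Slc16a10, Slc6a15, Slc6a9 and Slc1a2. Without CDH11+/+ replicate 1, edgeR called 9, beside 6.18% of all genes, 4 of them higher (3.06% of all genes), Slc43a3, Slc38a1, Slc7a1 and Slc7a11, and 5 lower (3.12%), Cltrn, Slc6a20a, Slc16a10, Slc6a15 and Slc1a2. Without any 1 of the other 7 libraries, edgeR called 0 of the 47. Slc6a20a, Slc6a15 and Slc1a2 were thus lower in all 3 of these alternatives and missed the threshold over the 8 libraries.

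**Figure D1:**
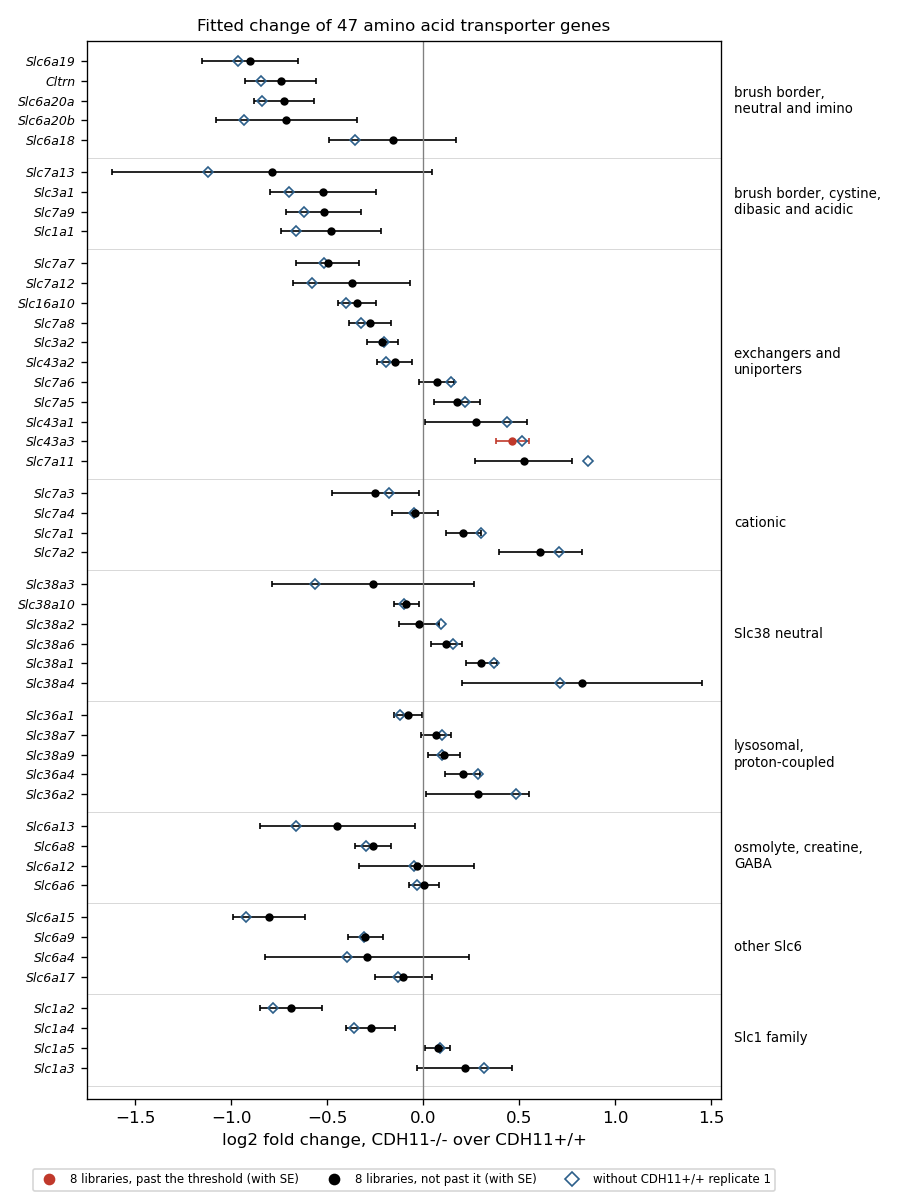
Log2 fold change of the 47 tested genes, CDH11-/- over CDH11+/+, by role, with standard errors (4 libraries each); open diamonds show the fit without CDH11+/+ replicate 1. All 9 brush border genes lie left of 0, and Slc43a3, at 0.47, is the only gene past the threshold.

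The brush border carriers of neutral and imino acids and their partner Cltrn lay lower in CDH11-/- libraries in all 5 cases, with a median log2 fold change of -0.73 (-0.85 without CDH11+/+ replicate 1). Slc6a18 turned positive, at 0.05, without CDH11+/+ replicate 3. None of the 5 passed the threshold over 8 libraries in edgeR. Those called lower were 3 by DESeq2 (1.48% of all genes), 1 by limma-voom (2.16%) and 2 without CDH11+/+ replicate 1 (3.12%). In 3 of the 5 (Cltrn, Slc6a19 and Slc6a20a) every CDH11-/- library lay below every CDH11+/+ library (3.74% of all genes). The summed level of the 5 was 510.4 to 855.9 CPM in CDH11-/- libraries and 601.1 to 1197 CPM in CDH11+/+ libraries, of which CDH11+/+ replicate 1 was the lowest.

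Cltrn (chromosome X, 164088830 to 164118860 of GRCm38) had 213.9, 248.5, 227.9 and 184.0 CPM in the CDH11-/- libraries, against 274.8, 511.7, 320.7 and 356.2 CPM in the CDH11+/+ libraries. All 4 CDH11-/- values lay below all 4 CDH11+/+ values, and CDH11+/+ replicate 2 was well above the rest. The log2 fold change was -0.74 ± 0.19 (adjusted p = 0.136, and 0.0374 without CDH11+/+ replicate 1).

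Slc6a19, the main luminal carrier of neutral amino acids and the gene mutated in Hartnup disorder in humans, had 50.9, 51.0, 57.4 and 35.9 CPM in CDH11-/- libraries, against 76.4, 136.2, 65.0 and 87.3 CPM in CDH11+/+ libraries. The groups did not overlap, and the gap between the nearest libraries was small beside the spread of the CDH11+/+ values. Its log2 fold change of -0.90 ± 0.25 was the most negative of the 47. The adjusted p was 0.182, 0.00256 by DESeq2, 0.124 by limma-voom and 0.128 without CDH11+/+ replicate 1. On chromosome 13 its neighbour on the same strand is Slc6a18, a carrier of glycine and other neutral amino acids in mouse kidney. Slc6a18 had 308.9, 493.1, 344.0 and 254.7 CPM in CDH11-/- libraries and 208.3, 450.7, 552.3 and 352.0 CPM in CDH11+/+ libraries. Here the groups overlapped throughout, with the lowest value in CDH11+/+ replicate 1, and the log2 fold change was -0.16 ± 0.33 (adjusted p = 0.872). Per kilobase of exon, the ratio of Slc6a18 to Slc6a19 was 6.88, 11.0, 6.79 and 8.04 in CDH11-/- libraries and 3.09, 3.75, 9.62 and 4.57 in CDH11+/+ libraries, and the groups overlapped.

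The imino acid carriers Slc6a20a and Slc6a20b lie side by side on chromosome 9. Slc6a20a had 12.0, 15.0, 12.9 and 11.9 CPM in CDH11-/- libraries, against 15.3, 23.9, 26.3 and 19.97 CPM in CDH11+/+ libraries. The groups were separate but nearly touched, at 15.0 and 15.3 CPM. Its log2 fold change was -0.73 ± 0.16 (adjusted p = 0.0645, 0.00348 by DESeq2, 0.0113 by limma-voom and 0.00524 without CDH11+/+ replicate 1). Slc6a20b had 28.5, 48.3, 35.1 and 23.9 CPM in CDH11-/- libraries and 26.3, 74.4, 71.5 and 50.4 CPM in CDH11+/+ libraries. CDH11+/+ replicate 1 fell among the CDH11-/- values, and the log2 fold change was -0.71 ± 0.37 (adjusted p = 0.435). The 2 genes share 631 of the 4128 windows of 50 bases in the exons of Slc6a20a, and 26.7% of its windows occur in some other gene, so the split of counts between them is uncertain.

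The brush border carriers of cystine, dibasic and acidic amino acids showed the same sign, in 4 of 4 genes, with a median log2 fold change of -0.52 (-0.68 without CDH11+/+ replicate 1). None passed the threshold in any of the 16 alternatives, and no gene of this group had separate groups of libraries. CDH11+/+ replicate 1 was the lowest CDH11+/+ library for all 4.

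Slc3a1, the heavy chain (rBAT), had 151.2, 204.7, 142.4 and 115.4 CPM in CDH11-/- libraries and 125.9, 275.8, 264.0 and 214.5 CPM in CDH11+/+ libraries. CDH11+/+ replicate 1 lay within the CDH11-/- values and the other 3 above them (log2 fold change -0.52 ± 0.28, adjusted p = 0.445). Its light chain Slc7a9, which together with Slc3a1 accounts for cystinuria in humans when mutated, had 33.9, 43.1, 40.5 and 26.1 CPM in CDH11-/- libraries and 38.7, 64.3, 45.9 and 57.0 CPM in CDH11+/+ libraries (log2 fold change -0.52 ± 0.19, adjusted p = 0.282). Both chains thus had the same fitted change, and the ratio of Slc3a1 to its light chains Slc7a9 and Slc7a13 per kilobase averaged 2.89 ± 0.68 in CDH11-/- libraries and 2.57 ± 0.47 in CDH11+/+ libraries (SD, n = 4 each), with overlap.

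Slc7a13, the light chain of the late (S3) proximal tubule, varied more between mice than any other member of the brush border groups. It had 17.1, 57.6, 19.5 and 9.01 CPM in CDH11-/- libraries and 7.47, 47.2, 90.8 and 32.4 CPM in CDH11+/+ libraries, and the lowest and highest values both belonged to CDH11+/+ libraries. The log2 fold change of -0.79 had a standard error of 0.83 (adjusted p = 0.728), and it was -0.18 without CDH11+/+ replicate 3 and -1.54 without CDH11-/- replicate 2. Slc1a1, the glutamate and aspartate carrier, had 69.7, 92.3, 80.9 and 58.0 CPM in CDH11-/- libraries and 59.7, 131.6, 126.3 and 102.6 CPM in CDH11+/+ libraries (log2 fold change -0.48 ± 0.26, adjusted p = 0.454). As for Slc3a1, only CDH11+/+ replicate 1 fell within the CDH11-/- range. Windows shared with the opposite-strand gene 4430402I18Rik make up 31.0% of Slc1a1, and windows shared with Prepl make up 24.8% of Slc3a1.

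**Figure D2:**
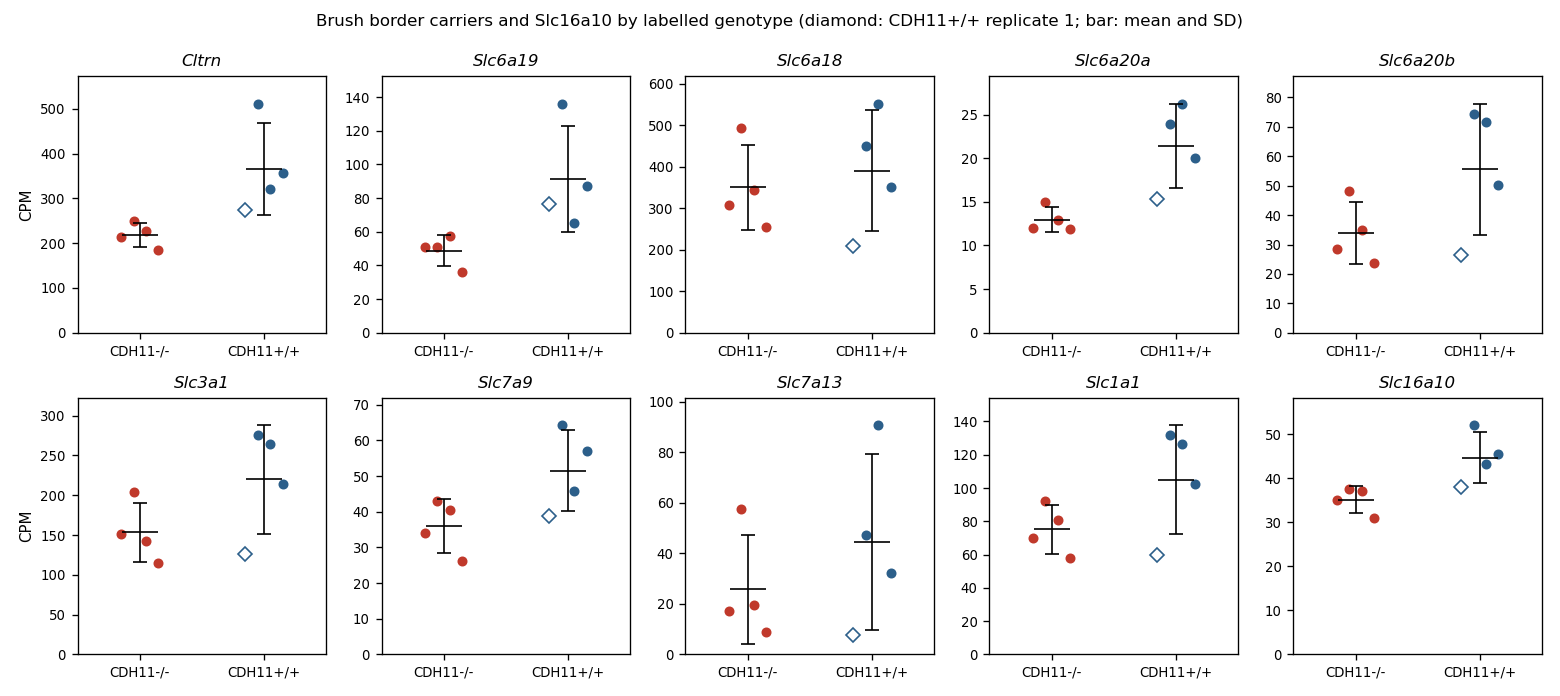
CPM of the 9 brush border genes and the basolateral Slc16a10 in each library, CDH11-/- left and CDH11+/+ right (4 each), with mean and SD; the diamond is CDH11+/+ replicate 1. For Cltrn, Slc6a19, Slc6a20a and Slc16a10 every CDH11-/- point lies below every CDH11+/+ point, and in 8 of the 9 brush border genes the diamond is the lowest CDH11+/+ point.

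Markers of the proximal tubule had the same sign. Their list holds none of the members and was chosen with earlier results of these data known. All 14 (Lrp2, Cubn, Slc34a1, Slc5a2, Slc5a12, Slc22a6, Slc22a8, Slc13a3, Kap, Aqp1, Gatm, Ass1, Miox and Fbp1) had negative log2 fold changes, with a median of -0.75 (52.4% of all genes were negative). At an unadjusted p under 0.05 (edgeR), 12 were lower (7.63% of all genes were). Slc13a3, a dicarboxylate carrier, was the 1 that fell past the threshold (log2 fold change -1.51 ± 0.24, adjusted p = 0.0469). It was no longer past it without any 1 of CDH11+/+ replicates 2 to 4 or the CDH11-/- libraries (adjusted p = 0.0790 to 0.141). Without CDH11+/+ replicate 1, 7 of the 14 passed (6.18% of all genes did). The summed level was 2616 to 6080 CPM in CDH11-/- libraries and 2999 to 8315 CPM in CDH11+/+ libraries, and no marker was at 0 in every library. Kap gave a large and variable part of this sum. It had 612.3 to 3311 CPM in CDH11-/- libraries and 283.8 to 4363 CPM in CDH11+/+ libraries (log2 fold change -0.64 ± 0.89). The mean log2 CPM of the 14 markers was 6.93, 7.25, 7.03 and 6.60 in CDH11-/- libraries and 7.12, 8.42, 7.87 and 7.94 in CDH11+/+ libraries. The part of these markers in the lower transporter levels was not tested.

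Set against that mean within each library, the libraries overlapped for 6 of the 8 brush border genes compared (all but Slc7a13), and for 2 the CDH11-/- libraries lay higher. Cltrn stood 0.81, 0.71, 0.80 and 0.93 log2 units above the marker mean in CDH11-/- libraries and 0.98, 0.58, 0.45 and 0.54 units above it in CDH11+/+ libraries. Slc6a19 stood at -1.26, -1.57, -1.19 and -1.43 in CDH11-/- libraries and at -0.86, -1.33, -1.85 and -1.49 in CDH11+/+ libraries. Both sets of values overlapped. Those of Slc3a1 and Slc7a9 overlapped too, with means of 0.28 and -1.81 in CDH11-/- libraries and -0.12 and -2.18 in CDH11+/+ libraries. Slc6a18 was different in that all 4 CDH11-/- libraries, at 1.34, 1.70, 1.40 and 1.40, lay above all 4 CDH11+/+ libraries, at 0.58, 0.39, 1.24 and 0.52. The same held for Slc1a1, at -0.81, -0.72, -0.69 and -0.74 in CDH11-/- libraries and -1.22, -1.38, -0.89 and -1.25 in CDH11+/+ libraries. The marker mean was itself lower in CDH11-/- libraries (6.95, against 7.84 in CDH11+/+ libraries). Log2 fold changes of its markers ran from -2.31 (Slc22a8) to -0.14 (Aqp1). A gene that fell less than this mean stands higher on this scale. These relative levels were inspected after the values were known and are given as a description, with no test.

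The 6 markers of the S3 segment, of which Slc7a13 and Slc3a1 are 2, were all negative too, with a median of -0.83, and 0 of them reached an unadjusted p under 0.05 (edgeR). Their summed level was 214.9 to 625.0 CPM in CDH11-/- libraries and 183.0 to 936.7 CPM in CDH11+/+ libraries, with the lowest value in CDH11+/+ replicate 1. Markers of injured tubule cells (Havcr1, Lcn2, Vcam1 and Krt20) summed to 875.0 to 1077 CPM in CDH11-/- libraries and 1094 to 1184 CPM in CDH11+/+ libraries, without overlap. Of the 4, 2 were negative, and each overlapped when taken singly. Vcam1 differed most in mean, at 380.2 CPM in CDH11-/- libraries and 523.1 CPM in CDH11+/+ libraries. The means of Havcr1 were 388.6 and 381.7 CPM.

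By likeness over the 8 libraries, the tested genes whose log2 CPM most resembled that of Cltrn included Neu1 (a lysosomal sialidase, Pearson's r 0.996), Ces1e (a carboxylesterase, 0.994), Gas2 (0.993) and Acmsd (an enzyme of tryptophan breakdown, 0.989). Spearman's rho was 1 for Neu1, Ces1e and Gas2 and 0.976 for Acmsd. None of these is a transporter of these families. The 8 points are the same libraries for every gene, in the same 2 labelled groups, and these correlations describe only that resemblance.

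The basolateral and ubiquitous exchangers and uniporters were mixed in sign. Of 11 tested, 6 were negative and 5 positive, 1 rose past the threshold (Slc43a3), and the median was -0.15. The members that serve the basolateral side of the proximal tubule were among the negative ones.

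Slc16a10, a uniporter of aromatic amino acids, had 35.1, 37.4, 37.1 and 30.9 CPM in CDH11-/- libraries, against 37.9, 52.0, 43.1 and 45.6 CPM in CDH11+/+ libraries. The groups were separate but nearly touched, at 37.4 and 37.9 CPM, again with CDH11+/+ replicate 1 nearest to the CDH11-/- values. The log2 fold change was -0.35 ± 0.10 (adjusted p = 0.152, 0.0393 by limma-voom and 0.0259 without CDH11+/+ replicate 1). In the authors' normalized values the groups overlapped, with CDH11+/+ replicate 1 at 504.1 units and CDH11-/- libraries at 418.7 to 531.7 units. Slc7a7, the light chain for dibasic amino acids that is mutated in lysinuric protein intolerance in humans, had 87.0, 72.0, 83.3 and 61.0 CPM in CDH11-/- libraries and 99.9, 137.5, 82.3 and 108.4 CPM in CDH11+/+ libraries (log2 fold change -0.50 ± 0.16, adjusted p = 0.230). Slc7a8, the light chain for neutral amino acids, had 97.2, 88.9, 100.5 and 79.8 CPM in CDH11-/- libraries and 96.6, 133.6, 97.4 and 116.4 CPM in CDH11+/+ libraries (log2 fold change -0.28 ± 0.11, adjusted p = 0.297). For both light chains the upper CDH11-/- libraries overlapped the lower CDH11+/+ libraries.

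Their heavy chain Slc3a2 had 150.3, 153.8, 159.7 and 139.2 CPM in CDH11-/- libraries and 175.3, 187.4, 149.1 and 187.5 CPM in CDH11+/+ libraries. Only CDH11+/+ replicate 3 lay within the CDH11-/- range (log2 fold change -0.21 ± 0.08, adjusted p = 0.260). Per kilobase, the ratio of Slc3a2 to the sum of its light chains was 0.82 ± 0.07 in CDH11-/- libraries and 0.77 ± 0.06 in CDH11+/+ libraries (SD, n = 4 each), with overlap. The other exchangers did not pass the threshold either. They were Slc7a12 (log2 fold change -0.37), Slc43a2 (-0.15), Slc7a6 (0.07), the large neutral amino acid carrier Slc7a5 (0.18), Slc43a1 (0.27) and the cystine and glutamate exchanger Slc7a11 (0.53 ± 0.25, adjusted p = 0.374). Slc7a11 had 5.24, 4.46, 5.38 and 6.21 CPM in CDH11-/- libraries and 6.18, 2.58, 3.48 and 2.78 CPM in CDH11+/+ libraries, so that CDH11+/+ replicate 1 was more than the other 3 and among the CDH11-/- values. Without that library its log2 fold change was 0.86 (adjusted p = 0.0293).

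Slc43a3 (chromosome 2, 84936579 to 84958509 of GRCm38) was the gene that rose. Although it belongs to the same family as the amino acid uniporters Slc43a1 and Slc43a2, the human protein is known as a carrier of purine nucleobases. It had 71.6, 74.7, 85.9 and 87.9 CPM in CDH11-/- libraries, against 62.6, 51.1, 61.4 and 56.8 CPM in CDH11+/+ libraries. Every CDH11-/- value lay above every CDH11+/+ value. The log2 fold change was 0.47 ± 0.09, or 1.38-fold (adjusted p = 0.0403). No window of 50 bases in its exons occurs in another gene. The call was near the threshold. Without CDH11+/+ replicate 1 the adjusted p was 0.0107. It was 0.104, 0.0678 and 0.141 without CDH11+/+ replicates 2, 3 and 4, and 0.0637, 0.0579, 0.116 and 0.0917 without CDH11-/- replicates 1 to 4. Across all 16 alternatives the log2 fold change ranged over 0.41 to 0.56 and 8 kept the call.

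Markers of other cell types are given beside Slc43a3. The 4 endothelial markers (Pecam1, Cdh5, Emcn and Kdr) all had positive log2 fold changes, with a median of 0.32, and summed to 202.6, 211.0, 213.6 and 199.0 CPM in CDH11-/- libraries and 199.8, 145.2, 165.1 and 153.3 CPM in CDH11+/+ libraries. CDH11+/+ replicate 1 reached the CDH11-/- range in this sum. Taken singly, Cdh5 and Kdr had every CDH11-/- library above every CDH11+/+ library, as Slc43a3 did (3.59% of all genes did). Pecam1 and Emcn overlapped. All 4 macrophage markers (Adgre1, Csf1r, C1qa and Cd68) were positive, with a median of 0.12 and sums of 892.6 to 1094 CPM in CDH11-/- libraries and 772.6 to 1169 CPM in CDH11+/+ libraries, where CDH11+/+ replicate 1 was the highest of all 8. Of 4 fibroblast markers 3 were positive, with sums of 679.4 to 940.3 CPM in CDH11-/- libraries and 633.9 to 864.5 CPM in CDH11+/+ libraries. The groups overlapped in all 3 of these sums. Of the single fibroblast markers, Pdgfra had every CDH11-/- library above every CDH11+/+ library. Of the 3 tested T and B cell markers all were positive, with sums of 207.6 to 265.1 CPM in CDH11-/- libraries and 18.2 to 113.8 CPM in CDH11+/+ libraries, and Jchain gave most of the CDH11-/- sums. The 3 podocyte markers were all positive too, with a median of 0.39. Their sums overlapped, at 325.7 to 409.9 CPM in CDH11-/- libraries and 225.3 to 331.9 CPM in CDH11+/+ libraries. The 3 distal convoluted tubule markers were all negative, with a median of -0.50. With 8 libraries none of these markers passed the threshold, and none was at 0 in every library. Without CDH11+/+ replicate 1, 6.18% of all genes passed the threshold (3.06% higher and 3.12% lower), beside 0.725% with 8 libraries. In that fit all 4 endothelial markers passed it (adjusted p = 0.00671 for Pecam1, 0.0230 for Cdh5, 0.0207 for Emcn and 0.0102 for Kdr). So did the fibroblast markers Pdgfra (0.00901) and Dcn (0.0109) and the macrophage markers Csf1r (0.0397) and Adgre1 (0.0478), all of them higher in CDH11-/- libraries, and 0 of the T and B cell markers did. In the same fit 2 podocyte markers and 1 distal convoluted tubule marker passed it. Their part in the level of Slc43a3 was not tested.

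**Figure D3:**
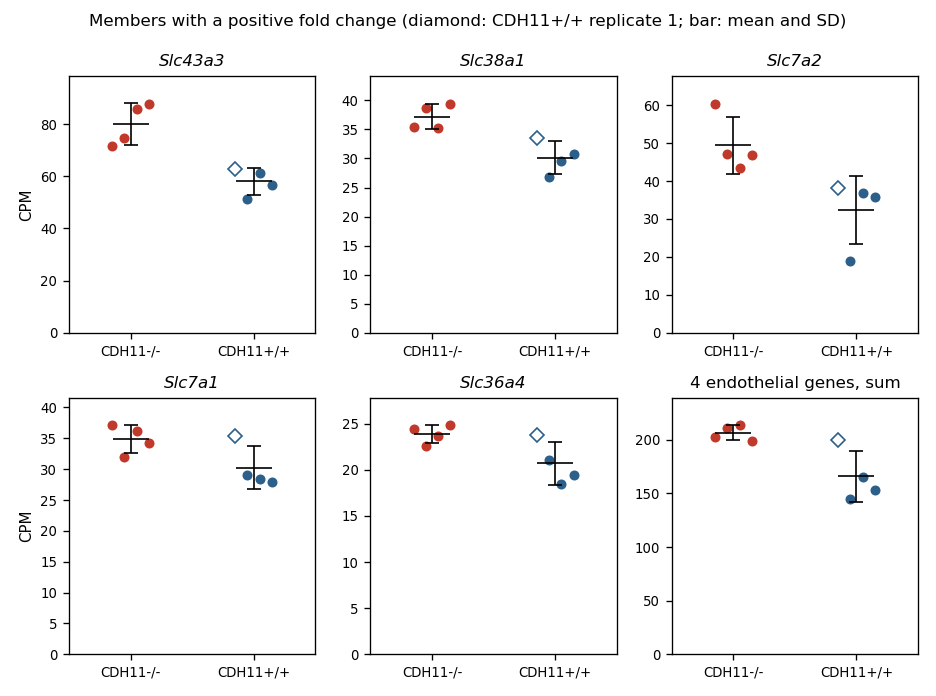
CPM of 5 genes with positive fold changes and the sum of 4 endothelial markers in each library, CDH11-/- left and CDH11+/+ right (4 each), with mean and SD; the diamond is CDH11+/+ replicate 1. Slc43a3, Slc38a1 and Slc7a2 have separate groups, while for Slc7a1, Slc36a4 and the endothelial sum the diamond lies among the CDH11-/- points.

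The cationic amino acid carriers, which bring arginine, lysine and ornithine into cells, summed to 87.2 to 106.4 CPM in CDH11-/- libraries and 56.6 to 82.5 CPM in CDH11+/+ libraries, with no overlap. Slc7a2 gave most of that difference, with means of 49.4 CPM in CDH11-/- libraries and 32.4 CPM in CDH11+/+ libraries. Slc7a1, Slc7a3 and Slc7a4 each overlapped. None of the 4 passed the threshold, and 2 were negative and 2 positive. Slc7a2, the inducible carrier, had 60.4, 47.1, 43.3 and 46.8 CPM in CDH11-/- libraries, against 38.1, 18.8, 36.8 and 35.8 CPM in CDH11+/+ libraries. The groups were separate, and CDH11+/+ replicate 2 stood far below the other 3 (log2 fold change 0.61 ± 0.22, adjusted p = 0.260). Slc7a1, the widely expressed carrier, had 37.1, 31.9, 36.2 and 34.3 CPM in CDH11-/- libraries and 35.4, 29.1, 28.5 and 27.9 CPM in CDH11+/+ libraries. Only CDH11+/+ replicate 1 overlapped the CDH11-/- values (log2 fold change 0.21 ± 0.09, adjusted p = 0.327). Without it the log2 fold change was 0.30 (adjusted p = 0.0468). Slc7a3, at 1.21 to 1.68 CPM in CDH11-/- libraries and 1.47 to 1.94 CPM in CDH11+/+ libraries, and Slc7a4 (log2 fold change -0.04 ± 0.12) made up the rest of the group.

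The sodium-coupled neutral amino acid carriers of the Slc38 family, which take up glutamine, alanine and other small neutral amino acids, summed to nearly the same level in both groups, 434.0 to 487.7 CPM in CDH11-/- libraries and 454.2 to 476.8 CPM in CDH11+/+ libraries. Slc38a1 was the member with separate groups. It had 35.4, 38.7, 35.3 and 39.5 CPM in CDH11-/- libraries, against 33.6, 26.7, 29.6 and 30.7 CPM in CDH11+/+ libraries (log2 fold change 0.30 ± 0.08, adjusted p = 0.134, 0.0424 by limma-voom and 0.0251 without CDH11+/+ replicate 1). Slc38a2, whose transcript is known to respond to amino acid shortage, had 129.8, 157.1, 162.3 and 158.6 CPM in CDH11-/- libraries and 187.0, 143.7, 136.6 and 149.5 CPM in CDH11+/+ libraries. Both extremes were replicate 1 of their group, and the fitted change was -0.02 ± 0.10 (adjusted p = 0.950), with a positive sign under library size scaling (0.02). Slc38a10 had 198.6, 186.1, 181.6 and 168.7 CPM in CDH11-/- libraries and 185.9, 196.8, 208.6 and 190.1 CPM in CDH11+/+ libraries (log2 fold change -0.09 ± 0.07, adjusted p = 0.586).

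Slc38a3, the glutamine carrier through which the proximal tubule feeds ammonia production, had 26.5, 50.4, 28.2 and 23.0 CPM in CDH11-/- libraries and 9.78, 43.5, 60.0 and 39.9 CPM in CDH11+/+ libraries. Its lowest value was in CDH11+/+ replicate 1, as for Slc7a13, and its standard error of 0.53 exceeded its log2 fold change of -0.26. Without that library the log2 fold change was -0.56 (adjusted p = 0.365). Slc38a4 had 7.89 CPM in CDH11-/- replicate 2 and 1.19 to 2.89 CPM in the other 7 libraries, and Slc38a6 had 41.4 to 51.7 CPM in CDH11-/- libraries and 40.7 to 44.4 CPM in CDH11+/+ libraries. Neither separated the groups.

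The lysosomal and proton-coupled carriers had similar sums in the groups, 174.3 to 191.2 CPM in CDH11-/- libraries and 175.0 to 194.3 CPM in CDH11+/+ libraries. Slc36a1, which exports small amino acids from lysosomes, had 91.4, 99.4, 101.5 and 100.4 CPM in CDH11-/- libraries and 92.9, 115.6, 100.7 and 105.7 CPM in CDH11+/+ libraries (log2 fold change -0.08 ± 0.07, adjusted p = 0.670). Slc38a7, a lysosomal glutamine carrier, had 26.0, 25.4, 28.9 and 23.9 CPM in CDH11-/- libraries and 25.9, 25.3, 24.0 and 24.4 CPM in CDH11+/+ libraries. The groups overlapped almost fully (log2 fold change 0.07 ± 0.08, adjusted p = 0.746). Slc38a9, the lysosomal arginine sensor of the mTORC1 pathway, had a log2 fold change of 0.11 ± 0.08. Slc36a4 had 24.4, 22.6, 23.6 and 24.8 CPM in CDH11-/- libraries and 23.8, 21.0, 18.5 and 19.4 CPM in CDH11+/+ libraries, where again only CDH11+/+ replicate 1 overlapped (log2 fold change 0.21 ± 0.09, adjusted p = 0.339).

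Among the carriers of osmolytes, creatine and GABA, the taurine carrier Slc6a6 was abundant and near equal in the groups. It had 449.4, 459.3, 489.8 and 434.8 CPM in CDH11-/- libraries and 410.5, 514.3, 476.3 and 426.3 CPM in CDH11+/+ libraries (log2 fold change 0.00 ± 0.08, adjusted p = 0.987). The creatine carrier Slc6a8 had 200.6, 177.9, 183.7 and 151.3 CPM in CDH11-/- libraries and 192.1, 241.6, 200.6 and 221.0 CPM in CDH11+/+ libraries. The lowest CDH11+/+ libraries overlapped the highest CDH11-/- library (log2 fold change -0.26 ± 0.10, adjusted p = 0.247). The GABA and taurine carrier Slc6a13 had 28.7, 44.3, 25.7 and 17.5 CPM in CDH11-/- libraries and 18.8, 49.7, 56.0 and 33.5 CPM in CDH11+/+ libraries (log2 fold change -0.45 ± 0.40, adjusted p = 0.676). The betaine carrier Slc6a12 had 0.69 to 1.06 CPM in CDH11-/- libraries and 0.77 to 1.03 CPM in CDH11+/+ libraries.

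The remaining Slc6 carriers, known for neurotransmitters or as orphans, were negative in 4 of 4 tested genes and summed to 54.6 to 69.8 CPM in CDH11-/- libraries and 73.0 to 94.0 CPM in CDH11+/+ libraries, without overlap. Slc6a15, a carrier of branched-chain amino acids and proline known from brain, had 16.3, 20.6, 18.2 and 15.8 CPM in CDH11-/- libraries, against 21.8, 34.8, 41.1 and 25.8 CPM in CDH11+/+ libraries. The groups were separate, with CDH11+/+ replicate 1 again the nearest (log2 fold change -0.80 ± 0.19, adjusted p = 0.0995). By DESeq2 the adjusted p was 0.00319, by limma-voom 0.0420 and without CDH11+/+ replicate 1 0.00978. Relative to the proximal tubule marker mean its libraries overlapped. The glycine carrier Slc6a9 had 32.2, 30.0, 26.8 and 27.2 CPM in CDH11-/- libraries and 34.5, 39.1, 31.7 and 37.7 CPM in CDH11+/+ libraries. A single CDH11-/- library reached the lowest CDH11+/+ library (log2 fold change -0.30 ± 0.09, adjusted p = 0.166, and 0.0459 by limma-voom). Slc6a17 and the serotonin carrier Slc6a4 had log2 fold changes of -0.10 ± 0.15 and -0.29 ± 0.53. The 5 markers of neurons or glia summed to 7.76 to 9.27 CPM in CDH11-/- libraries and 8.13 to 9.34 CPM in CDH11+/+ libraries.

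In the Slc1 family of glutamate and neutral amino acid carriers, Slc1a2 had 6.45, 8.21, 9.13 and 6.89 CPM in CDH11-/- libraries, against 9.41, 14.0, 14.4 and 11.8 CPM in CDH11+/+ libraries. The groups were separate by a narrow margin (log2 fold change -0.69 ± 0.16, adjusted p = 0.0843, 0.0143 by DESeq2, 0.0301 by limma-voom and 0.0139 without CDH11+/+ replicate 1). In limma on the authors' normalized values its log2 fold change was -1.17 (adjusted p = 0.166). Slc1a2 is known as the main glutamate carrier of astrocytes, and here it rested on 1108 counts over 8 libraries. Slc1a4, a carrier of alanine and serine, had 20.1, 20.8, 20.8 and 17.8 CPM in CDH11-/- libraries and 18.9, 29.0, 21.3 and 26.8 CPM in CDH11+/+ libraries (log2 fold change -0.27 ± 0.13, adjusted p = 0.367). The glutamine carrier Slc1a5 had 104.4, 118.4, 111.2 and 121.2 CPM in CDH11-/- libraries and 108.1, 99.9, 109.4 and 114.6 CPM in CDH11+/+ libraries. Its groups overlapped (log2 fold change 0.08 ± 0.07, adjusted p = 0.659). The glial carrier Slc1a3 had a log2 fold change of 0.22 ± 0.25.

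**Figure D4:**
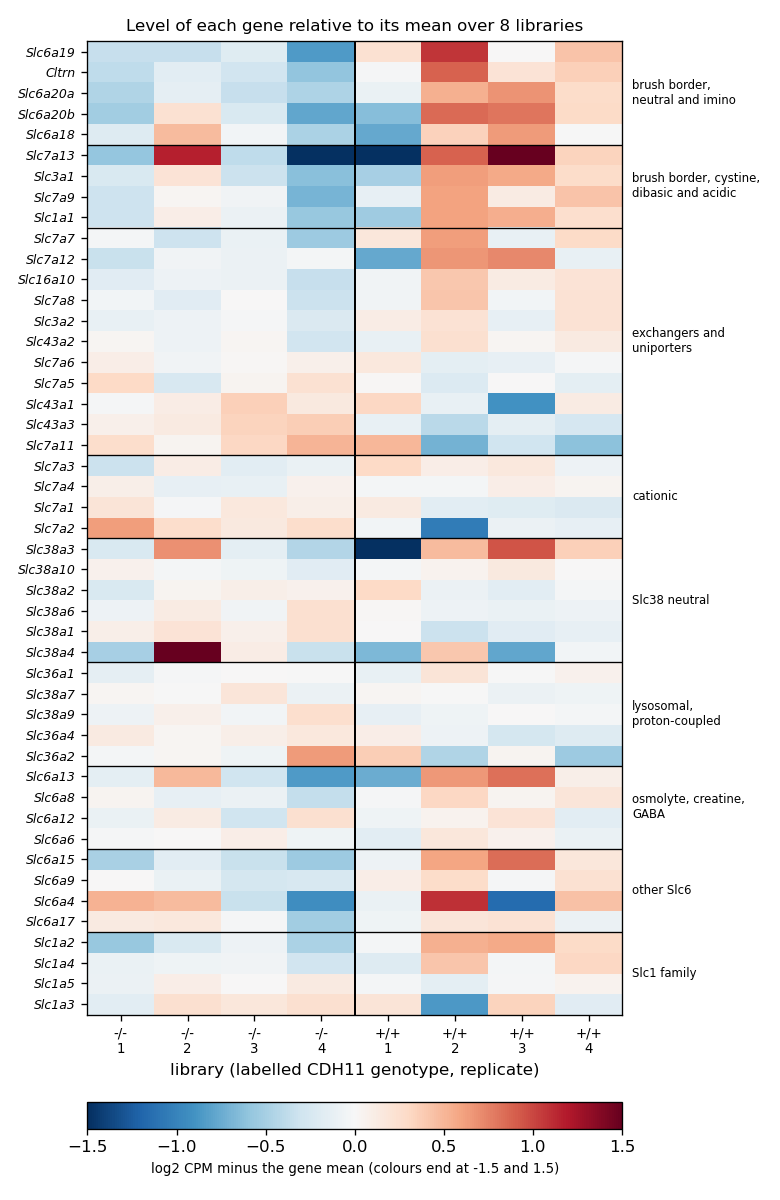
Log2 CPM of each of the 47 tested genes in each library, minus the mean of that gene over the 8 libraries; CDH11-/- libraries are left of the line and CDH11+/+ libraries right of it, and colours end at -1.5 and 1.5. The brush border rows are mostly blue in CDH11-/- libraries and red in CDH11+/+ replicates 2, 3 and 4, and CDH11+/+ replicate 1 is blue in many of them.

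The 9 members that did not pass the filter held 13 to 73 counts over the 8 libraries and reached at most 1.16 CPM in any library. They included Slc1a6, Slc38a11, Slc6a2, Slc6a3, Slc6a7, Slc6a11, Slc6a14 and Slc7a15. Slc6a2, the noradrenaline carrier, had 13 counts, all in CDH11-/- libraries. Its level was 0.54, 0.00, 0.16 and 0.15 CPM in CDH11-/- libraries and 0.00 CPM in each CDH11+/+ library, too few counts for a comparison. The 9 family genes under the minimum of 10 counts (Slc1a7, Slc36a3, Slc38a5, Slc38a8, Slc6a5, Slc6a16, Slc6a21, Slc7a10 and Slc7a14) held 0 to 7 counts each.

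Per kilobase of exon, levels of the 47 genes spanned about 3 orders of magnitude. Cltrn was the most abundant at 141.6 CPM per kilobase in CDH11-/- libraries and 236.9 in CDH11+/+ libraries, a mean of 189.3 ± 68.0 over the 8 libraries, above 98.7% of all genes tested. Slc6a18 (83.9 ± 26.9 CPM per kilobase) and Slc3a1 (82.2 ± 27.4) followed, and did not differ beyond their spread. Next were Slc6a6 (54.1 ± 4.09), Slc3a2 (46.1 ± 5.21) and Slc6a8 (37.6 ± 5.25), of which each neighbouring pair lay within about 2 SD. Slc6a19, at 14.0 ± 6.22 CPM per kilobase, lay far below its partner Cltrn in every library: the ratio of Cltrn to Slc6a19 was 13.6, 15.8, 12.9 and 16.6 in CDH11-/- libraries and 11.7, 12.2, 16.0 and 13.2 in CDH11+/+ libraries, with overlap. At the low end Slc6a4 had 0.18 CPM per kilobase. The exon length used is that of all annotated exons of a gene, so a gene with a long exon that is seldom used appears lower than its transcript.

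**Figure D5:**
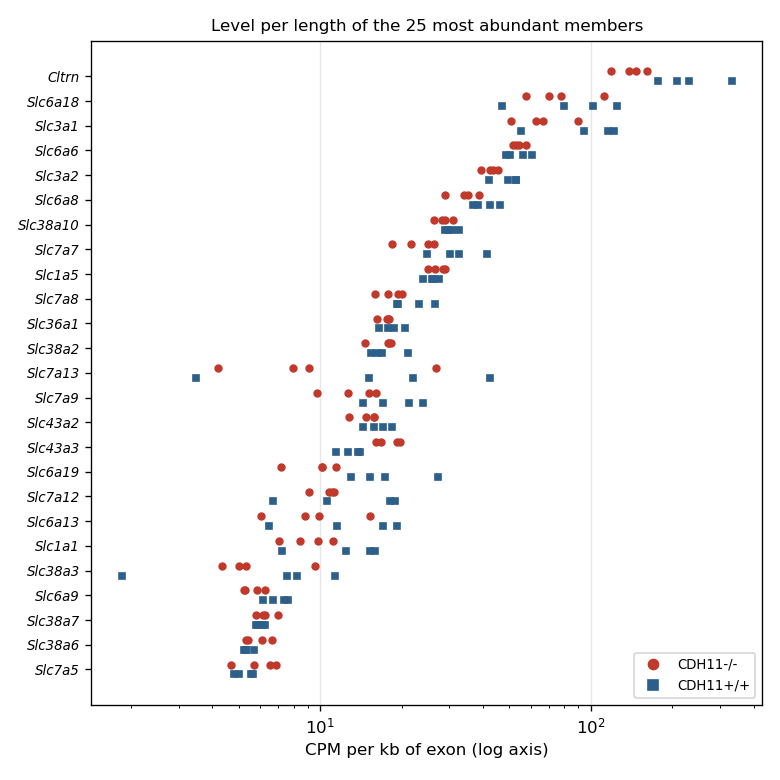
CPM per kilobase of exon (log axis) of the 25 most abundant members in each library, CDH11-/- as circles and CDH11+/+ as squares. Cltrn leads in every library, and the brush border genes Slc6a18, Slc3a1 and Slc7a13 spread over a wider range than Slc6a6, Slc38a10 or Slc1a5.

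Among genes that move amino acids but belong to other families, those past the threshold were lower in CDH11-/- libraries. Of 23 such genes (peptide, mitochondrial, vesicular and lysosomal carriers among them), 16 were tested. Of these, 13 were negative (52.4% of all genes were), with a median log2 fold change of -0.18. In all, 2 fell past the threshold (0.366% of all genes did). Without CDH11+/+ replicate 1 there were 5 past it, all lower (3.12% of all genes). Among these, Slc25a15, the mitochondrial ornithine carrier of the urea cycle, had 33.4, 44.7, 39.0 and 31.5 CPM in CDH11-/- libraries, against 51.6, 64.7, 58.0 and 56.5 CPM in CDH11+/+ libraries (log2 fold change -0.63 ± 0.11, adjusted p = 0.0313). Its groups were well apart, CDH11+/+ replicate 1 included.

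The call of Slc25a15 was lost without CDH11+/+ replicate 2, 3 or 4 (adjusted p = 0.0887, 0.0686 and 0.114) and without CDH11-/- replicate 1, 3 or 4 (0.115, 0.0829 and 0.0660). Slc25a29, a mitochondrial carrier of basic amino acids, had 3.29, 3.56, 5.17 and 4.54 CPM in CDH11-/- libraries, against 7.20, 8.81, 7.20 and 7.02 CPM in CDH11+/+ libraries. Its groups were separate, and it missed the threshold narrowly (log2 fold change -0.86 ± 0.17, adjusted p = 0.0515, and 0.0240 without CDH11+/+ replicate 1).

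Of 14 genes that control these carriers or answer to amino acid shortage, 10 were negative (52.4% of all genes were). In edgeR, DESeq2 or limma-voom 0 passed the threshold. At an unadjusted p under 0.05 in edgeR, 3 were lower (7.63% of all genes were) and 0 higher (6.74%). Hnf4a, a transcription factor of proximal tubule cells, had 223.4, 337.2, 250.8 and 194.5 CPM in CDH11-/- libraries and 283.6, 473.2, 349.7 and 321.7 CPM in CDH11+/+ libraries (log2 fold change -0.51 ± 0.21, adjusted p = 0.326). Its libraries overlapped between the groups. Atf4, the transcription factor of the amino acid response, had a log2 fold change of -0.02 ± 0.08. Sesn2, a leucine sensor, had 59.8, 54.8, 57.0 and 52.0 CPM in CDH11-/- libraries, against 73.1, 62.6, 69.3 and 62.5 CPM in CDH11+/+ libraries. It was the regulator with separate groups, as 3.74% of all genes were in that direction (log2 fold change -0.26 ± 0.07, adjusted p = 0.142).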

How the data were processed

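RNA from 8 kidneys was sequenced with a strand-keeping library kit, per the labels' protocols, and libraries were grouped by labelled genotype, 4 CDH11-/- and 4 CDH11+/+. The labels give no replicate number, so numbers follow the order of deposit and only name a library. P-values measure the spread between these mice. The authors deposited whole-number counts for each Ensembl gene and a second table of normalized values, a signal in units of counts in which a factor of its own scales each gene in each library. Per the submitters' processing notes the tools included DRAGEN and DESeq2 and the build was mm10; their versions, and whether counting used strand, were not given in the sources used here. There were 0 columns of other samples.

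Names and coordinates came from GENCODE M21 (GRCm38), which named 42170 of 42256 identifiers. Counts were tested on all genes with edgeR 4.0.16 in R 4.3.3 (TMM scaling, filterByExpr, robust quasi-likelihood F test, Benjamini-Hochberg over 15852 genes, threshold 0.05), and the test was checked on simulated data. Standard errors were taken as the size of the log2 fold change over the square root of its F statistic. Total counts ran from 10675309 to 18539479 a library, and counting error weighs most on genes near 1 CPM. The biological coefficient of variation common to all genes was 13.5%. CPM use TMM library sizes, and log2 CPM a prior count of 2. Alternatives were DESeq2 1.42.0, limma-voom with quality weights and limma 3.58.1 on the authors' normalized values (pseudocounts of 1 and 10), the authors' factors as edgeR offsets, other scalings, no filter on low counts, and leaving out each library.

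Values in every library are given for members past the threshold, the 10 of smallest p, the 2 most abundant per role group and the brush border and basolateral pairs; Slc7a11, Slc36a4, Slc38a3 and Slc6a13 were added after their values were seen. The members and gene lists were chosen with earlier results of these data known. Exons of 25 of the 56 members share no window of 50 bases with another gene and 6 share over 20% (Slc1a1, Slc38a6, Slc3a1, Slc6a20a, Slc6a20b and Slc6a9); exons of 13 overlap a gene on the opposite strand. Levels of those genes are uncertain to that extent. Values of some genes in these lists are not reported here.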

Additional observations from a re-analysis of the deposited data

Results flagged for a closer look

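In 5 of 94 groups examined (47 genes in each labelled group of 4) the highest or lowest library stood apart from the other 3 by more than Dixon's 95% critical value for the gap over the range. Chance alone flags about 1 group in 20. Slc36a2 had 4.01 CPM in CDH11-/- replicate 4, and 2.43 to 2.59 CPM in the other CDH11-/- libraries. Slc38a2 had 129.8 CPM in CDH11-/- replicate 1, and 157.1 to 162.3 CPM in the others. Slc38a4, a carrier of neutral and cationic amino acids, had 7.89 CPM in CDH11-/- replicate 2, and 1.48 to 2.32 CPM in the others. Slc7a1 had 35.4 CPM in CDH11+/+ replicate 1, and 27.9 to 29.1 CPM in the other CDH11+/+ libraries. Slc7a2 had 18.8 CPM in CDH11+/+ replicate 2, and 35.8 to 38.1 CPM in the others. Each of the 5 values came from a different gene, and 5 different libraries were involved.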

How the results depend on the processing

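The number of the 47 transporter genes past the threshold was 1 over 8 libraries, 6 by DESeq2, 7 by limma-voom with quality weights, 0 by limma with a pseudocount of 1 on the values the authors normalized, and 0 to 9 when a library was left out (9 without CDH11+/+ replicate 1, 0 without any other). For the other amino acid transport genes it was 2 over 8 libraries, 3 by DESeq2 and by limma-voom, 1 by limma on the normalized values with either pseudocount and with the authors' factors as offsets, and 0 to 5 when a library was left out (5 without CDH11+/+ replicate 1). Over all genes, 115 were called, 515 by DESeq2, 679 by limma-voom, 54 and 60 by limma on the normalized values, 65 with the authors' factors, and 27 to 993 when a library was left out. The median log2 fold change of the members lay between -0.18 and -0.07 in all 16 alternatives, and that of all genes moved by at most 0.05. Of 448 fits of the 28 named genes, 408 kept direction and side of the threshold, 18 passed it in addition, 8 lost it (all Slc43a3, 0.56 by limma with a pseudocount of 1, and 0.41 to 0.52 without 1 library) and 14 changed sign, each in a gene far from the threshold. Slc38a10 was 0.020 by limma with either pseudocount and 0.022 with the authors' factors. Slc38a2 was 0.024 by library size alone, 0.050 by limma-voom, and -0.075 to 0.095 with a library left out. Slc38a7 was -0.054 and -0.052 by limma with a pseudocount of 1 and 10 and -0.048 with the authors' factors. With a library left out Slc6a18 was -0.37 to 0.055 and Slc6a6 -0.032 to 0.066. The cause was not tested. No paired analysis was possible because the labels give no replicate numbers shared between the groups. Depth limits the 9 members of at most 73 counts.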

Other observations

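Annotated antisense RNAs of 3 family genes were counted and not tested. Slc6a19os had 50 counts over the 8 libraries, at 0.27, 0.39, 0.48 and 0.68 CPM in CDH11-/- libraries and 0.46, 0.23, 0.40 and 0.69 CPM in CDH11+/+ libraries. Slc36a3os had 26 counts and Slc36a1os had 0. The level of Slc1a2 depended on the scale. In the authors' normalized values it had 62.4, 90.4, 108.6 and 101.2 units in CDH11-/- libraries and 403.2, 158.5, 148.8 and 170.3 units in CDH11+/+ libraries, where CDH11+/+ replicate 1 was the highest library, while in CPM that library was the lowest of the CDH11+/+ group.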
